A study of Rattus norvegicus and synthetic construct with 4 samples.

Results

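The elements described here are the human islet CAGE elements that lie in the major histocompatibility complex (MHC) on chromosome 6, taken as every counted element whose midpoint falls between 29.6 and 33.15 Mb of hg19. By this rule 36 of the 3378 elements in the count table were members. The window was split at 31.45 and 32.35 Mb into a class I region with 13 elements, a class III region with 21 and a class II region with 2. The 225 counted elements on the rest of chromosome 6 served for comparison. CAGE maps the 5' ends of transcripts, and each element is a stretch of 198 bp around such starts in human pancreatic islets. The elements were made as synthetic oligonucleotides and tested by STARR-seq, a reporter assay in which a sequence sits inside the transcript that it drives, so that its RNA output over its plasmid DNA input measures its activity. A random barcode of 16 bases on each plasmid told the plasmids apart. There were 3 RNA replicates, each from INS1 832/13 cells that received 10 ug of the same plasmid pool by electroporation and were harvested 24 h later. The only other group was 1 library of the input plasmid DNA.

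INS1 832/13 is a clonal rat insulinoma line that secretes insulin and is used as a model of the beta cell. It is a rat tumour line, so the human sequences were read out by rat transcription factors on a plasmid and outside their chromosomal setting. The libraries held reporter barcodes alone, so markers of the cell line could not be checked in them.

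The MHC is one of the most gene-dense stretches of the human genome. Its class I region holds the genes of the class I molecules, which present peptides from inside the cell to cytotoxic T cells. The class II region holds the class II molecules, which present peptides to helper T cells, and genes for the processing of peptides. The class III region between them holds complement, cytokine and heat shock genes beside many housekeeping genes. Class I molecules are found on nearly all nucleated cells, the beta cell included, and class II molecules mainly on cells of the immune system. Variants in this region carry the strongest genetic association with autoimmune diabetes. The elements are named by coordinates in the files, and no human annotation was used here, so each is called below by its start on chromosome 6 (hg19, counted from 1) and has no gene name.

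Only the barcodes were at hand as sequence. Those shown are tags on which the main results rest, since each marks a separately made plasmid. Elements were tested on counts summed over their barcodes, and the barcodes show how that sum was spread over plasmids. They are written 5′ to 3′ in lower case, with no part set off, because the bases of a barcode were random. The following are the 6 barcodes of the element at 30585537 and the 2 of the element at 32939888 that reached at least 5 RNA counts in all 3 RNA libraries, and the 3 barcodes with the most plasmid DNA of the element at 31795494, which had the most barcodes of the 36.
Element 30585537, barcode with 69 DNA counts: aaaccacgactgcatt
Element 30585537, barcode with 47 DNA counts: actttgatgtggctga
Element 30585537, barcode with 39 DNA counts: gtaaggggatggctct
Element 30585537, barcode with 36 DNA counts: tcttaactggtagtaa
Element 30585537, barcode with 26 DNA counts: tttgcccatgttaccg
Element 30585537, barcode with 20 DNA counts: gcgagggacgtttagc
Element 32939888, barcode with 41 DNA counts: atattattttcaacta
Element 32939888, barcode with 24 DNA counts: acatatggagagcccg
Element 31795494, barcode with 152 DNA counts: tcggacgcgatctaag
Element 31795494, barcode with 77 DNA counts: tagatgttctagcttc
Element 31795494, barcode with 58 DNA counts: tatacaggtaacataa

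The plasmid DNA library held 1079728 counts, and RNA libraries 1, 2 and 3 held 211117, 197554 and 218571. The 36 MHC elements took 9656 of the DNA counts and 1199, 1179 and 1182 of the RNA counts. They were carried by 321 barcodes, with a median of 7 per element and a range from 2 to 34, and 25 elements had at least 5. Only barcodes with 10 or more DNA counts that were seen in some RNA library are in the table, so plasmids that gave no RNA at all were not analysed here. Activities are RNA over DNA after TMM normalization and are relative to the centre of the whole library, not to a control sequence. An activity below the centre is therefore not repression. SDs are over the 3 RNA libraries and leave out the error of the 1 DNA library. The p-values measure the spread between electroporations of the same plasmid library. The reads carry no stated molecular identifier.

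One MHC element gave more RNA per plasmid DNA than the library's centre. It lies in the class I region at chr6:30585537-30585734 and was the only member above the centre by the quasi-likelihood test of edgeR (Benjamini-Hochberg adjusted p under 0.05 over all elements). It had 530 plasmid DNA counts on 17 barcodes and 271, 224 and 183 RNA counts in the 3 libraries. These gave RNA/DNA of 4.38, 3.79 and 2.88 times the centre, so all 3 libraries stood well above it, and the mean was 3.68 ± 0.758 (SD, n = 3). On the log2 scale this was 1.88 ± 0.42 (SE), and edgeR's adjusted p was 0.000473. The call was lost without RNA replicate 2, where the log2 ratio was 1.86 and edgeR's adjusted p 0.0570, and with library totals as the normalization, where they were 1.14 and 0.0802. They were 1.36 and 0.171 once RNA counts of 1 to 4 per barcode were set to 0.

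The output of this element was spread over its counted plasmids. Of 33 barcodes paired with it, 17 (51.5%) were counted, and plasmids that gave no RNA are not among them. Of these 17, 15 reached 5 RNA counts in at least 1 library and 6 did so in all 3. The barcode tcttaactggtagtaa, with 36 DNA counts, gave 68, 44 and 31 RNA counts, the most of any of the 17. The barcode aaaccacgactgcatt, with 69 DNA counts, gave 18, 42 and 31, and gcgagggacgtttagc, with 20 DNA counts, gave 17, 21 and 11. The most productive barcode held 21.1% of the element's RNA. Whether the call holds without that barcode was not tested. Over all elements, 300 of 3378 (8.88%) were called above the centre, against 1 of 36 MHC elements (2.78%) and 9 of 225 on the rest of chromosome 6 (4.0%). The settings that lost the call, without RNA replicate 2, with library totals and with low counts set to 0, called 5.71, 5.0 and 3.4% of all elements. The element was called with RLE size factors (9.24% of all), over elements with at least 5 barcodes (12.1%), without RNA replicate 1 (8.56%) or 3 (6.45%) and at an adjusted p under 0.1 (9.98%).

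A class III element at chr6:31926836-31927033 had nearly the same ratio but did not pass the test. It had 186 DNA counts on 7 barcodes and 104, 51 and 79 RNA counts, which gave 4.79, 2.46 and 3.54 times the centre. All 3 libraries were above the centre, and the mean was 3.59 ± 1.17 (SD, n = 3). On the log2 scale this was 1.84 ± 0.76 (SE), and edgeR's adjusted p was 0.159. Different plasmids led in different libraries. The barcode gtcacctattgctttc, with 42 DNA counts, gave 3, 29 and 43 RNA counts and held 32.1% of the element's RNA, while tatcttgcttagtgaa, with 22 DNA counts, gave 37, 2 and 3. DESeq2, limma-voom and limma on the median over barcodes put the element past the threshold, with adjusted p of 0.0235, 0.00220 and 0.0143. Each of these called this element and the one at 30585537 among the members. Limma-voom and the median over barcodes thus called 2 of 36 above the centre, against 15.1 and 13.9% of all elements. DESeq2 called 2 of the 15 members to which it gave an adjusted p (13.3%), against 23.2% of the 1806 elements with one.

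Fitted activities of at least 2 times the centre were found for 5 of the 36 elements (13.9%), against 22.7% of all elements and 11.1% of the rest of chromosome 6. Besides the elements at 30585537 and 31926836, these were at 30640687, 31744978 and 32939888. The class I element at 30640687 had 139 DNA counts on 5 barcodes and was at 2.22, 1.74 and 2.82 times the centre. The class II element at 32939888 had 235 DNA counts on 7 barcodes and was at 1.60, 2.71 and 2.41 times. Both stood above the centre in every library, and neither passed the test (edgeR's adjusted p 0.837 and 0.668). The class III element at 31744978 rested on 2 barcodes with 27 DNA counts and ran from 5.08 times the centre in RNA library 1 to 0.308 in library 3, so its libraries disagreed even on the side of the centre.

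The class I region held the extremes of the 36 elements. Below the element at 30585537, its 12 other elements had log2 ratios from -2.64 to 1.17, and none passed the test. The element at 30181069 was low with little spread: 12 barcodes with 348 DNA counts gave 7 RNA counts in each library, or 0.172, 0.180 and 0.168 times the centre. None of its barcodes reached 5 counts in any library. Its log2 ratio was -2.52 ± 1.47 (SE; edgeR's adjusted p 0.514), and limma-voom, which called 4.03% of all elements below the centre, placed it there with an adjusted p of 0.0356. The element at 29910203 had the lowest ratio of the 36, at 0.157 ± 0.0739 (SD, n = 3), from 3 barcodes that gave 1, 2 and 1 RNA counts.

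Among the other class I elements with at least 5 barcodes, those at 31324841 and 30457199 were on the low side. The first had 126 DNA counts and 1, 4 and 12 RNA counts, or 0.0680, 0.284 and 0.793 times the centre. The second had 291 DNA counts and 2, 26 and 13 RNA counts, or 0.0589, 0.801 and 0.372 times. Both were below the centre in all 3 libraries and lowest in RNA library 1. The element at 30875904 was as uneven on the high side, with 6, 74 and 39 RNA counts over 248 DNA counts, or 0.207, 2.67 and 1.31 times the centre. By contrast the element at 30034915, with 15 barcodes, lay close to the centre throughout, at 0.776, 1.04 and 0.984 times.

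The median of the class I elements differed widely between the 3 RNA libraries and was lowest in RNA library 1. The median log2 ratio of the 13 elements was -2.16, -1.40 and -0.01 in RNA libraries 1, 2 and 3, and the fitted median over the libraries was -0.34. RNA library 1 was the lowest of the 3 for 6 of the 13 elements (46.2%), and for 34.8% of all elements. It was the highest for 3 of the 13, the called element at 30585537 among them. The medians of the 21 class III elements, -0.64, -0.37 and -0.47, lay much closer together. Over all elements the 3 medians were -0.11, -0.08 and -0.12. The TMM normalization brings these close together, so their closeness is not a result.

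The class III region had no element above the centre by edgeR's test, although 1, the element at 31926836, was above it at an unadjusted p under 0.05, as were 13.5% of all elements. Its fitted log2 ratios ran from -2.15 to 1.84 with a median of -0.21. Of the 21, 14 were below the centre, as were 155 of 225 on the rest of chromosome 6 and 1731 of all 3378. The most deeply carried element, at 31795494, had 34 barcodes with 1026 DNA counts and gave 57, 83 and 63 RNA counts. That was 0.476, 0.725 and 0.511 times the centre, below it in all 3 libraries with an SD of 0.135, and a log2 ratio of -0.81 ± 0.56 (SE; edgeR's adjusted p 0.649). Of its 34 counted barcodes, which were 28.1% of the 121 paired with it, 5 reached 5 RNA counts in any library. The barcode with the most DNA in it, tcggacgcgatctaag with 152 counts, gave 2, 21 and 20 RNA counts, while tagatgttctagcttc with 77 gave 1, 2 and 2 and tatacaggtaacataa with 58 gave 0, 0 and 1.

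The other deeply carried class III elements were near the centre. The element at 31704153, with 30 barcodes and 938 DNA counts, was at 0.895, 0.860 and 0.693 times the centre, or 0.816 ± 0.108 (SD, n = 3). The element at 31633779, with 22 barcodes and 572 DNA counts, was at 1.57, 0.329 and 0.946 times. Its spread was far wider, with 21 RNA counts in library 2 and 105 in library 1. The element at 32143757 was high in RNA library 2 alone, at 2.56 times against 0.484 and 0.705 in the others.

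The low end of class III was formed by elements at 31703998, 31783275 and 31795394, at 0.223 ± 0.111, 0.226 ± 0.136 and 0.326 ± 0.185 times the centre (SD, n = 3 for each). They had 4, 5 and 6 barcodes and 10 to 14 RNA counts in all. All were below the centre in every library, and no barcode of the 3 elements reached 5 RNA counts. None passed the test, with edgeR's adjusted p from 0.751 to 0.874.

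The class II region was represented by 1 element above and 1 element below the centre, neither past the test. The element at 32939888 gave 44, 71 and 68 RNA counts over 235 DNA counts. Its barcodes atattattttcaacta, with 15, 21 and 8 RNA counts, and acatatggagagcccg, with 8, 24 and 25, were high in every library. The element at 32812328 gave 0, 2 and 5 RNA counts over 120 DNA counts on 4 barcodes. This was 0.149 and 0.347 times the centre in libraries 2 and 3, and the count of 0 in library 1 allows up to 3 counts, or 0.214 times the centre, for counting error only. With 2 elements the region's median log2 ratio of -0.70 describes neither of them. The adjusted p in edgeR's test was 0.668 and 0.641. Limma-voom placed the element at 32812328 below the centre (adjusted p 0.0202), and this element was named after that value was seen. In all, limma-voom called 2 of 36 members (5.56%) below the centre, against 4.03% of all elements. Under limma-voom the median log2 ratio of all elements was -0.32, against -0.03 in edgeR's fit.

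Overlapping elements tile a few of the starts and share sequence with each other, so their values are not separate sequences in the full sense. In the class III region 4 elements covered the stretch from 31703998 to 31704550. Their mean RNA/DNA, from the lowest coordinate to the highest, was 0.223, 0.816, 1.21 and 0.385 times the centre, so the inner elements were higher than the outer ones. The element at 31704253 exceeded its neighbour at 31704353, with which it shares 98 bp, by 1.48, 0.68 and 3.28 on the log2 scale in the 3 libraries. The element at 31704153 exceeded the one at 31703998, which shares 43 bp with it, by 1.97, 1.19 and 2.13. The outer elements had 4 barcodes each and the inner ones 30 and 13, and none of the 4 passed edgeR's test.

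The 3 elements from 31795394 to 31795791 gave no steady order beyond the first pair. The element at 31795494 was above the one at 31795394 by 0.35, 0.44 and 1.64 on the log2 scale, whereas the one at 31795594, with 3 barcodes, gave 1, 27 and 16 RNA counts and was lower than 31795494 in library 1 and higher in libraries 2 and 3. In the class I region, the 3 elements from 30685017 to 30685414 did not keep an order in any pair. The middle one, at 30685117, had 16 barcodes with 499 DNA counts and gave 8, 67 and 109 RNA counts, while the one at 30685217, with 9 barcodes and 412 DNA counts, gave 62, 17 and 28. The library that was lowest for the one was thus the highest for the other, although they share 98 bp. The element at 30685017 had 2 barcodes and gave 2, 0 and 18 RNA counts. At 31830459 and 31830659, elements 2 bp apart stood at 1.98 ± 0.791 and 0.552 ± 0.361 times the centre. The first was higher by 3.91, 0.36 and 1.83 on the log2 scale in the 3 libraries. It had 4 barcodes with 82 DNA counts, and 1 barcode held 54.4% of its RNA. The second had 8 barcodes, and neither element passed edgeR's test.

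Most barcodes of the MHC elements gave few or no RNA counts, and a minority gave many. Of 963 values (321 barcodes in 3 RNA libraries), 386 were 0, 429 were 1 to 4 and 148 were 5 or more. No value was 5 and 2 were 6, against 46 at 4, and the values of 5 or more had a median of 17. The whole table has the same gap, with 35 values at 5 and 102 at 6 against 5999 at 4, and the same median of 17 above it. Those of 5 or more held 82.2, 76.6 and 76.4% of the MHC elements' RNA counts in the 3 libraries. Such high barcodes made up 14.3, 15.3 and 16.5% of MHC barcodes, 18.2, 17.2 and 17.5% on the rest of chromosome 6 and 22.7, 22.1 and 23.4% over all elements. The MHC share was thus below that of all elements in every library.

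High counts seldom recurred on the same MHC plasmid. Of the 321 barcodes, 84 were high in 1 library, 20 in 2 and 8 in all 3. The 8 make up 2.49% of MHC barcodes, against 4.43% on the rest of chromosome 6 and 6.43% over all elements. All 8 belonged to the elements at 30585537 and 32939888. In the class III region 0 of 199 barcodes were high in all 3 libraries, which allows a share of up to 1.51%, counting error only and with barcodes taken as independent. In 8 of the 36 elements (22.2%) no barcode was high in any library, against 15.6% on the rest of chromosome 6 and 11.9% of all elements. A single barcode held over 50% of the RNA in 14 elements (38.9%), and in 35.0% of all elements.

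As a group the MHC elements were on the low side of the library, as was the rest of chromosome 6. The 36 elements had a fitted median log2 ratio of -0.25 (quartiles -1.04 and 0.35). The 225 elements on the rest of chromosome 6 had -0.48, and all 3378 elements had -0.03. In RNA libraries 1, 2 and 3 the MHC median was -0.94, -0.38 and -0.19, a mean of -0.50 ± 0.39 (SD, n = 3). That of the rest of chromosome 6 was -0.54, -0.49 and -0.72. All 3 RNA libraries were below the centre for 14 MHC elements (38.9%), against 29.4% of all elements and 41.8% of the rest of chromosome 6. All 3 were above it for 5 (13.9%), against 25.8% of all elements and 15.6% of the rest of chromosome 6. The difference in per-library medians between the MHC and the rest of chromosome 6 was -0.40, 0.12 and 0.53 on the log2 scale, a mean of 0.08 ± 0.47 (SD, n = 3). The libraries differed in its sign, and no direction is read from it. Over 3 libraries the exact two-sided sign-flip test cannot go below p = 0.25, so the values are given as a description. Among elements with at least 5 barcodes, 25 were in the MHC and 153 elsewhere on the chromosome. Their difference was 0.17, 0.16 and 0.26, a mean of 0.20 ± 0.06, with the MHC elements higher in each library. Of these 153, 40 lie between 25 and 29 Mb, a stretch with a median log2 ratio of -1.07 over its 53 elements. The difference was not computed without them.

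Summed over elements, RNA output per plasmid DNA was lower for the MHC than for the rest of chromosome 6 in each RNA library. The MHC elements held 0.894% of the plasmid DNA and 0.568, 0.597 and 0.541% of the RNA in the 3 libraries. Their summed RNA/DNA was 1.06, 1.09 and 1.02 times the centre, against 1.27, 1.28 and 1.25 for the rest of chromosome 6 and 1.67, 1.64 and 1.69 for all elements. The MHC value was the lowest of the 3 sets in every library, and relative to the rest of chromosome 6 it was lower by a log2 of -0.26 ± 0.04 (SD, n = 3). Without called elements, a set chosen by the compared ratio itself, this difference was 0.10 ± 0.09 and the libraries differed in sign. By class, the summed RNA/DNA was 1.26 ± 0.0942 times the centre in the class I region, 0.913 ± 0.0999 in class III and 1.54 ± 0.418 in class II (SD, n = 3). The element at 30585537 supplied 678 of the 1520 RNA counts of the class I region.

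The rest of chromosome 6 was itself uneven. The 53 elements between 25 and 29 Mb, just outside the MHC, had a median log2 ratio of -1.07, and the remaining 172 had -0.38. With those 172 as the comparison, the difference in per-library medians was -0.53, -0.01 and 0.48, a mean of -0.02 ± 0.51 (SD, n = 3). By position relative to other elements, the medians and means of the MHC elements did not give the same picture. The 12 MHC elements that overlapped another paired element had a median log2 ratio of -0.39, and the 21 with none within 1000 bp had -0.12, but the means were -0.51 and -0.49. The 3 elements with a neighbour nearby and no overlap had log2 ratios of -0.21, 1.15 and 1.88, a median of 1.15. The middle value is the element at 31744978 with 2 barcodes, and the highest is the called element. Elements of this kind had medians of -0.66 on the rest of chromosome 6 and -0.07 over all elements. The medians of overlapping and isolated elements were -0.62 and -0.28 on the rest of chromosome 6 and -0.39 and 0.07 over all elements.

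Correlations between RNA libraries were lower for the MHC elements than for the whole library. Across the 36 elements Pearson's r of the log2 ratios was 0.364, 0.306 and 0.405 for the 3 pairs of libraries, a mean of 0.358, with a mean Spearman's rho of 0.373. The mean r was 0.462 over the rest of chromosome 6 and 0.526 over all elements. Among isolated elements it was 0.485 for the 21 in the MHC and 0.523 on the rest of chromosome 6. Among overlapping elements it was 0.050 for the 12 in the MHC and 0.355 on the rest of chromosome 6. These values describe elements, which are not replicates, and the 3 ratios of an element share 1 DNA count. The median SD of an element's log2 ratio between libraries was 1.02 in the MHC, 0.860 on the rest of chromosome 6 and 0.810 over all elements. In the same order the median number of barcodes per element was 7, 6 and 6 and the median plasmid DNA count per element was 176.5, 206 and 197. The part of depth in the spread was not tested. Whether r differs between these sets beyond the noise of 36 elements was not tested.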

How the data were processed

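The authors deposited raw counts per barcode for 1 plasmid DNA and 3 RNA libraries, with a second table giving the element of each barcode, as the file headers and whole-number values show. Coordinates are in hg19, per the submitters' processing notes. How reads were processed, how the deposited counts were filtered and whether molecular identifiers were used is not given in the sources consulted. 0 count columns lacked a sample.

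Groups came from the sample titles. Barcode counts were added up for each of 3378 elements and tested as RNA against DNA with edgeR 4.0.16 (R 4.3.3), using TMM factors, the quasi-likelihood F test and Benjamini-Hochberg adjusted p over all elements, with 0.05 as the threshold. The DNA had a TMM factor of 1.47, and RNA libraries 1 to 3 had 0.876, 0.895 and 0.870. A filter of at least 2 barcodes and 10 DNA counts removed no element. SEs are the absolute log2 ratio over the square root of F. Log2 ratios per library used a pseudocount of 0.5 counts. The test was tried on simulated counts with known folds. Python 3.11.15 with pandas 2.3.3 and numpy 2.4.6 made the summaries.

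Elements named were those called, the 3 highest and 3 lowest per class with at least 5 barcodes, the 3 with the most barcodes and pairs sharing at least 50 bp; the others were picked after their values were seen. Overlapping elements share sequence with another paired element. The members and lists were chosen with earlier results of these data known. Other settings tried were library totals and RLE, DESeq2 1.42.0 and limma 3.58.1, stricter filters, low counts at 0, medians over barcodes, other comparison sets and left-out replicates. The summed comparison and the split by overlap were added after seeing the data. The depth per library limits elements with few barcodes most. No sequence or gene name of the elements was used here.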

Additional observations from a re-analysis of the deposited data

How the results depend on the processing

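The number of MHC elements called above the centre was 1 with RLE size factors, with at least 5 barcodes, without the filter and at an adjusted p under 0.1. It was 0 with library totals and when low RNA counts (1 to 4) were zeroed. It was 2 with DESeq2 (which gave no adjusted p for 21 of the 36), limma-voom and the median over barcodes. Leaving out each RNA replicate in turn gave 0 to 1. With library totals the median log2 ratio of the MHC elements was -0.99 and that of class III -0.95, while the median of all elements moved by -0.73. With low RNA counts set to 0, the median of all elements moved by -0.82. The medians were then -1.07 for the MHC, -1.07 for class III and -3.95 for class II. In the separate fit of elements with at least 5 barcodes, class II was 1.14 over its 1 element. Leaving out replicates gave class III medians from -0.40 to -0.19. The difference in medians from the rest of chromosome 6 was 0.08, and turned to -0.58 with low counts set to 0, -0.022 without 25 to 29 Mb, -0.0027 with means and -0.40 against all elements outside the MHC. It ran from -0.14 to 0.32 over the left-out replicates, negative without replicate 3. The summed log2 difference of -0.26 turned to 0.10 without called elements, a set chosen by the compared ratio itself, and the libraries then differed in sign (-0.0074, 0.14 and 0.16). The causes were not tested. The MHC median was -0.17 with DESeq2 and -0.56 with limma-voom, under which the medians of all elements were 0.05 and -0.32. No paired analysis was possible because the DNA group has 1 library. With 2 to 4 barcodes and a median of 1 RNA count per barcode, low activities are limited by depth.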

Other observations

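The pairing table holds 12 further MHC elements that carry a barcode and are not in the count table, so 36 of 48 paired elements (75%) were counted, against 78.7% on the rest of chromosome 6 and 78.1% overall. Of these 12, 7 lie in the class I region, 4 in class III and 1 in class II. They had 1 to 11 paired barcodes with a median of 4, while the median over all elements left uncounted was 2 and the median of the 36 counted MHC elements was 16. The element at 30069714, with 11 paired barcodes, and the one at 30584921, with 8, were the most widely paired of them. The latter lies within 1000 bp of the called element at 30585537. No activity can be given for these 12.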
